A study of Sus scrofa with 40 samples.

Results

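The 10 genes described here serve mitosis and DNA replication: CCNB1, PLK1, AURKA, BUB1B, BIRC5, KIF20A, UBE2C and STMN1 act in mitosis, and TYMS and MCM4 in DNA synthesis. They were found among 2132 genes that could be given 1 symbol, through gene symbols, gene titles and UniGene titles in the authors' tables, which yielded 13 probe sets for the 10 genes. Where a gene had several probe sets, that of the highest mean level was used, and the others are given as a check. All 10 probe sets lay above the filter on low levels described below. The genes were chosen by measured values of these same arrays: an earlier analysis had reported cell cycle genes as lower in regenerated cells of both special diets. Differences in those pairs, and averages or contrasts that include them, are therefore given as a description of the chosen genes and not as support.

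A dividing cell copies its genome in S phase and separates the copies in mitosis, and most of the genes used for these steps are transcribed in step with the cell cycle. Their RNA is scarce in resting cells, as endothelial cells of an intact artery mostly are. After the lining of an artery is removed, neighbouring endothelial cells divide to cover the gap, and cultured endothelial cells divide until they form a closed layer.

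RNA came from primary cultures of coronary endothelial cells, the lining cells of the arteries of the heart, of female farm pigs aged 4 months. The left circumflex artery (LCX) supplied the native cells, and the regenerated cells came from a stretch of the left anterior descending artery (LAD) that had been denuded of endothelium some time before, so regeneration and artery cannot be told apart. There were 8 control pairs of native and regenerated cultures, 6 pairs from the high cholesterol-fed group (CHL) and 6 pairs from the group on a diet rich in polyunsaturated fatty acids or fish oil (FO), with 1 Affymetrix porcine array for each of the 40 cultures. All cultures were at passage zero, grown for 10 days in medium with serum to about 80% confluence, so each group is a model of dividing cells in a dish, and cells other than endothelium scraped from the artery can be among them. The labels of 5 control pairs carry MA numbers and those of the other 15 pairs name the artery, and in FO pair 6 the native and regenerated labels give unlike animals.

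Values are log2(signal + 16), where the signal is the deposited intensity, and a difference of 1 is a doubling on that scale. Levels are compared between arrays for 1 probe set, and levels of different probe sets serve only to choose and order the probe sets of a gene. Every array had the same 2% trimmed mean of 500.1, and the number of arrays limits the precision. On 38 arrays the 3'/5' ratio of the actin control probes, a measure of RNA integrity, lay between 1.33 and 6.89, while it was 264 on the regenerated array of control animal 6 and 422 on that of FO animal 3. The defining endothelial markers PECAM1 and CDH5 were at 12.13 or more and 12.54 or more on all 40 arrays. Of 16 named endothelial markers 14 lay above the filter, and KDR and ERG did not. From native to regenerated cells 11 of the 14 had a fitted difference below 0 in control and in FO pairs, with none called. In the mean of the 3 diets 11 were lower and 3 higher, and 1 was called lower. Of 12 measured smooth muscle markers, all were above the filter. Their summed signal ranged from 8239 to 58821 in control native cells, from 11542 to 72331 in control regenerated cells and from 19345 to 47843 in CHL native cells. In the mean of the 3 diets 11 were higher in regenerated cells and 1 lower, and 2 were called higher. Of 11 fibroblast markers written down, 8 were named and lay above the filter. The medians of their summed signal were 2577, 2503 and 5971 in control, CHL and FO native cells. In regenerated cells they were 1818, 1727 and 1846. In the mean of the 3 diets 6 of the 8 were lower in regenerated cells and 2 higher. There 1 was called lower and 1 higher, against 1.19% and 1.48% of all probe sets. Of 14 leukocyte markers written down, 6 were named on the array and 4 lay above the filter.

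The plot of levels by array shows the main pattern. The group mean was highest in CHL native cells for 9 of the 10 genes, all but MCM4, and for 7 of these FO native cells came second. FO regenerated cells had the lowest mean for 7 genes. The CHL and FO arrays enter the differences behind the choice of the genes, so this order is a description. The distance between the highest and the lowest of the 6 group means was between 0.70 for STMN1 and 1.47 for MCM4. For no gene were any 2 of the groups compared here free of overlap, in 7 comparisons of 2 groups. The share over all probe sets was not computed, so nothing about the members is read from this. In 42 of the 50 steps between neighbours in the order the means differed by less than the smaller of their SDs. In such cultures fewer cells in mitosis and less RNA per cell cannot be told apart.

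**Figure D1:**
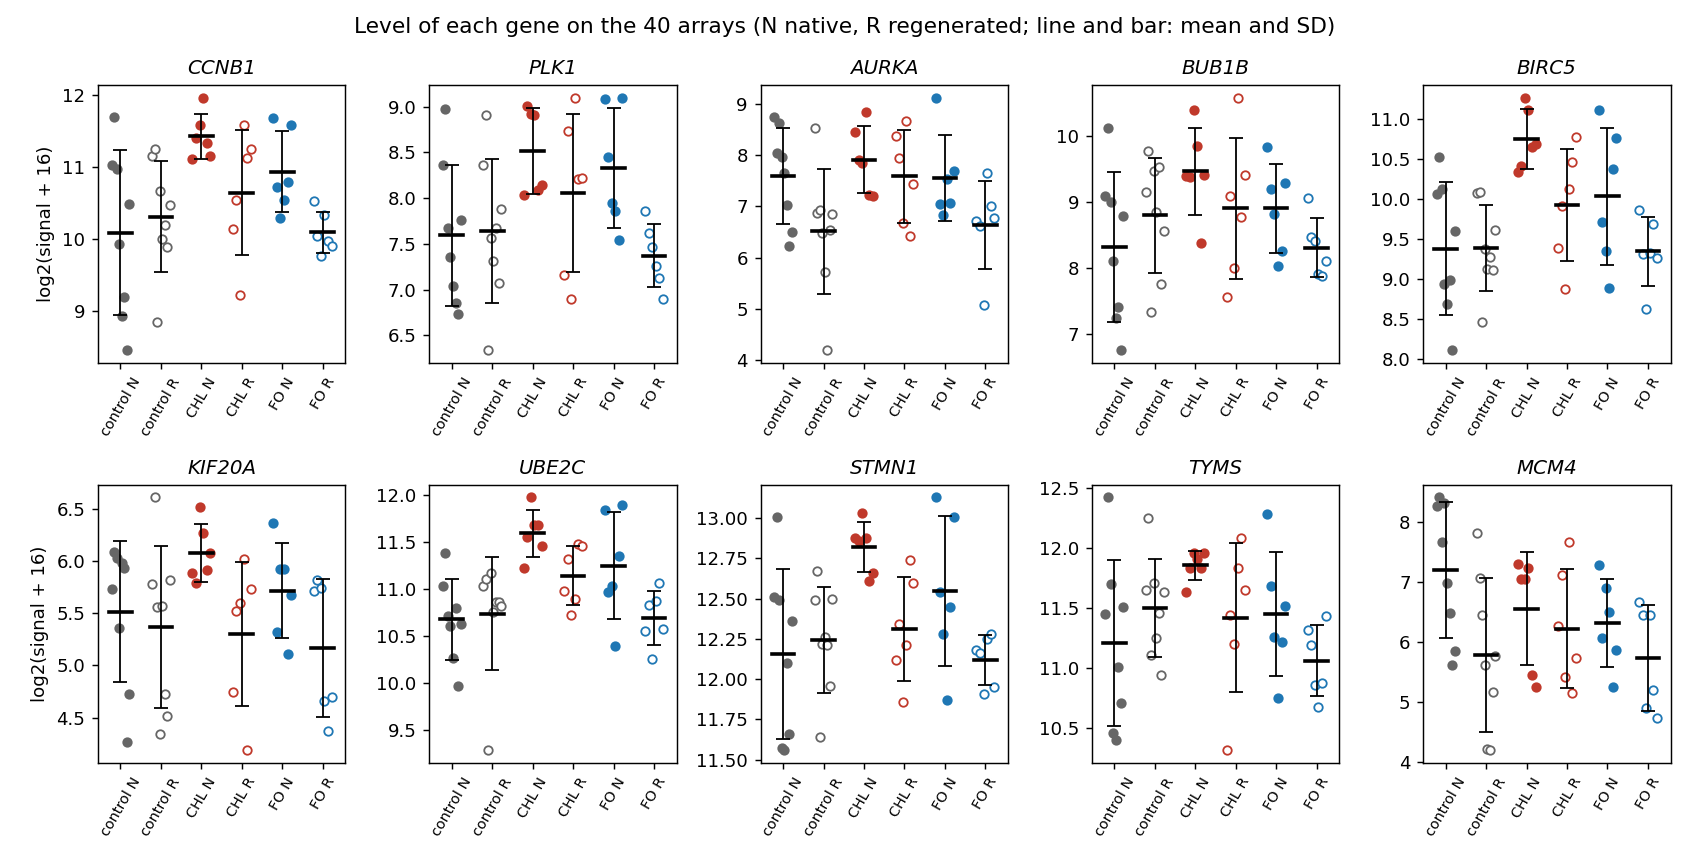
Level of each of the 10 genes on the 40 arrays as log2(signal + 16), by diet and origin of the cells; filled points are native (N) and open points regenerated (R) cultures, and the line and bar give the mean and SD of a group (n = 8 for control, 6 for CHL and FO). For CCNB1 the CHL native points lie close together and high, while the control native points are widely spread (SD 0.31 against 1.15). The contrast is smaller for BUB1B (0.66 against 1.14), AURKA (0.65 against 0.94) and MCM4 (0.94 against 1.13). No CHL native point of MCM4 lies above the control native median.

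Cyclin B1, encoded by CCNB1, activates the kinase CDK1 and so drives entry into mitosis. Its level in control native cells ranged from 8.45 in animal 7 to 11.69 in animal 2, with a median of 10.21. In CHL native cells the 6 values lay between 11.10 and 11.96, with a median of 11.37, and in FO native cells between 10.28 and 11.67, with a median of 10.75. Every CHL and every FO native array was thus above the median of the control native arrays, but only 1 CHL array was above the highest of them. In regenerated cells the values ranged from 8.84 to 11.25 in control, from 9.22 to 11.58 in CHL and from 9.76 to 10.52 in FO animals. The FO regenerated values formed a narrow band within the control range.

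Taken in pairs, the regenerated culture had less CCNB1 than the native culture of the same number in all 6 FO pairs, from -1.67 to -0.21, with a median of -0.75. The same held for 5 of 6 CHL pairs, from -2.36 in animal 3 to 0.09 in animal 6, with a median of -0.62. In control pairs the difference ran from -2.13 in animal 3 to 1.44 in animal 7, and 5 of 8 were above 0. The control pairs thus overlapped those of both special diets, and only CHL animal 3 lay below all of them. The fitted mean difference was -0.84 ± 0.35 (SE) in FO, -0.78 ± 0.35 in CHL and 0.22 ± 0.30 in control pairs, with limma's adjusted p of 0.521, 0.779 and 0.668, so none passed the threshold of 0.05.

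PLK1 encodes polo-like kinase 1, which acts on centrosomes, kinetochores and the cleavage furrow. In FO pairs all 6 differences were below 0, from -2.18 in pair 6 to -0.41 in animal 5, with a median of -0.72. The labels of FO pair 6 give unlike animals, and without that pair the fitted FO difference was -0.71. With all 6 pairs the fitted -0.95 ± 0.27 (SE) was a 1.94-fold lower value. The latter had the smallest limma p of the 10 genes in FO pairs (0.00219), yet its adjusted p was 0.306. In CHL pairs 3 were lower and 3 higher, from -2.01 in animal 3 to 0.19 in animal 4. The CHL mean of -0.46 was thus carried by animals 1 and 3, at -0.89 and -2.01. In control pairs 6 of 8 were above 0, but control animal 3 stood at -1.33 against -0.05 to 0.81 in the others.

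BUB1B, whose product BUBR1 holds back anaphase until chromosomes are attached, had the widest spread of pair differences in control cells, from -1.68 in animal 3 to 2.11 in animal 6, with an SD of 1.25. Controls 4, 5, 6 and 7 were at 1.36, 1.60, 2.11 and 1.01, all well above 0. In CHL pairs the SD was 1.26, with values from -2.38 in animal 3 to 0.74 in animal 4. In FO pairs it was narrow, from -1.19 to -0.12, with all 6 below 0. The fitted differences of 0.49 ± 0.35 (SE) in control, -0.56 ± 0.40 in CHL and -0.60 ± 0.40 in FO pairs did not pass the test (limma adjusted p = 0.384, 0.866 and 0.656).

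BIRC5 encodes survivin, a subunit of the chromosomal passenger complex that corrects the attachment of chromosomes to the spindle. Native levels ranged from 8.11 to 10.53 in control, from 10.34 to 11.27 in CHL and from 8.89 to 11.11 in FO animals. Of the 6 CHL native arrays, 4 were above the highest control native array. The pair difference was below 0 in 5 of 6 CHL pairs, from -2.40 to 0.09 with a median of -0.73, in 5 of 6 FO pairs, from -1.50 to 0.44 with a median of -0.71, and in 2 of 8 control pairs, from -1.66 to 1.0. The fitted differences were -0.83 ± 0.30 (SE) in CHL, -0.69 ± 0.30 in FO and 0.01 ± 0.26 in control pairs, with limma adjusted p of 0.747, 0.544 and 0.984.

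UBE2C, the ubiquitin-conjugating enzyme that starts the chains by which cyclin B is marked for destruction, was lower in all 6 CHL pairs, from -1.25 in animal 3 to 0.00 after rounding in animal 6, and in 5 of 6 FO pairs. In control pairs it ranged from -1.43 to 0.90. Its regenerated level in control animal 3, 9.29, stood far below the 10.76 to 11.17 of the other 7. A second UBE2C probe set, of lower signal, gave mean pair differences of -0.05 in control, -0.50 in CHL and -0.38 in FO animals, against 0.06, -0.45 and -0.55 for the first.

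STMN1 encodes stathmin, which destabilises microtubules and is switched off by phosphorylation in mitosis. It was lower in 5 of 6 CHL pairs, from -1.17 to 0.13, and in 5 of 6 FO pairs, from -1.06 to 0.38, and in control pairs it ranged from -0.85 to 0.70. Its differences were small: the fitted values were -0.51 ± 0.20 (SE) in CHL, -0.43 ± 0.20 in FO and 0.09 ± 0.18 in control pairs, and none was called. KIF20A encodes a kinesin motor of the central spindle that is needed for cytokinesis. Its signal was low, from 2.26 to 81.5 over all arrays. It was lower in all 6 CHL pairs, from -1.72 to -0.26, in 5 of 6 FO pairs, from -1.25 to 0.50, and in 4 of 8 control pairs, from -1.20 to 1.09.

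**Figure D2:**
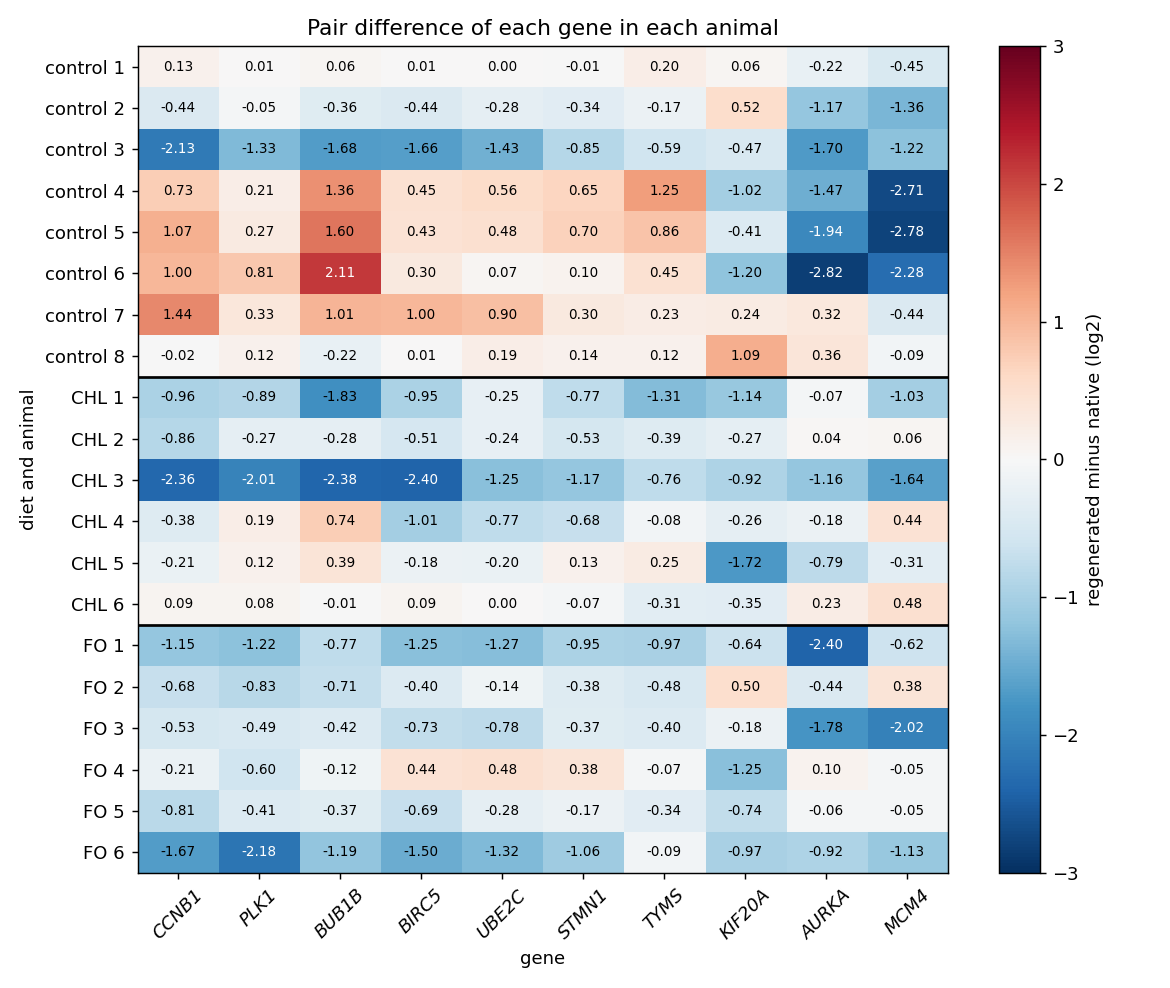
Regenerated minus native difference, log2(signal + 16), of each gene (columns) in each of the 20 pairs (rows, by diet); blue is lower and red higher in regenerated cells, and the value is printed in each cell. Control 3, CHL 3 and FO 6 are blue across the row, controls 5 and 6 are red for CCNB1, BIRC5, UBE2C, PLK1, BUB1B, TYMS and STMN1 and deep blue for AURKA and MCM4, and CHL 6 lies between -0.35 and 0.48.

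The plot of pair differences shows how the animals differed from each other. All 10 genes were lower in regenerated cells in 1 of 8 control pairs, 2 of 6 CHL pairs and 4 of 6 FO pairs. The mean over the 10 genes was -1.61 in CHL animal 3, -1.31 in control animal 3 and -1.21 in FO pair 6. The highest was 0.53 in control animal 7. Averaged over animals it was -0.55 ± 0.61 (SD, n = 6) in CHL, -0.65 ± 0.46 (SD, n = 6) in FO and -0.14 ± 0.54 (SD, n = 8) in control pairs. The spread between animals of 1 diet was therefore about as large as the gap between diets.

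No member was called in CHL pairs, where 0.00556% of 17999 probe sets were, in FO pairs, where 0.0389% were, or in control pairs, where 0.289% were (limma, adjusted p under 0.05). At an unadjusted p under 0.05, 5 members were lower in CHL pairs and 6 in FO pairs, against 2.89% and 3.83% of all probe sets. These 2 contrasts are those behind the choice of the genes, and nothing is read from the counts. In control pairs 2 members were lower at that p, against 15.8% of all probe sets. The median over the members was -0.49 in CHL, -0.59 in FO and 0.05 in control pairs, where the median over all probe sets was 0.02, 0.00 and -0.02. Without FO pair 6, whose labels give unlike animals, the median of the members in FO pairs was -0.47.

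The difference between diets was fitted as a contrast of the pair differences. The CHL and FO pairs behind the choice of the genes enter it. The direction of the members was thus partly set by that choice, and nothing is read from their counts. For CHL minus control pairs no probe set of 17999 was called by limma, and 14.6% had an unadjusted p under 0.05. There 8 members were lower, between -1.05 for BUB1B and -0.51 for UBE2C and PLK1, while AURKA was at 0.76 and MCM4 at 1.08. CCNB1 was at -1.0 ± 0.46 (SE), with a 95% interval from -1.95 to -0.05 and limma's adjusted p of 0.332. For FO minus control pairs, which share the control arrays with that contrast, no probe set was called either, and 4.2% had an unadjusted p under 0.05. PLK1 was at -1.0 ± 0.36, with an interval from -1.75 to -0.25 and an adjusted p of 0.909, and MCM4 was at 0.84 ± 0.48. At an unadjusted p under 0.05, 4 members were lower and 1 higher for CHL minus control, against 5.44% and 9.14% of all probe sets, and 3 were lower for FO minus control, against 1.81%. TYMS is counted as lower in both contrasts, at -0.73 and -0.69. Its other probe sets were above 0, at 0.55 and 0.77 for CHL and 0.28 and 0.10 for FO minus control. A difference between diets was thus not shown for any member. CHL minus FO pair differences ranged from -0.23 for KIF20A to 0.59 for AURKA, none of them called, with 1.96% of all probe sets at an unadjusted p under 0.05.

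**Figure D3:**
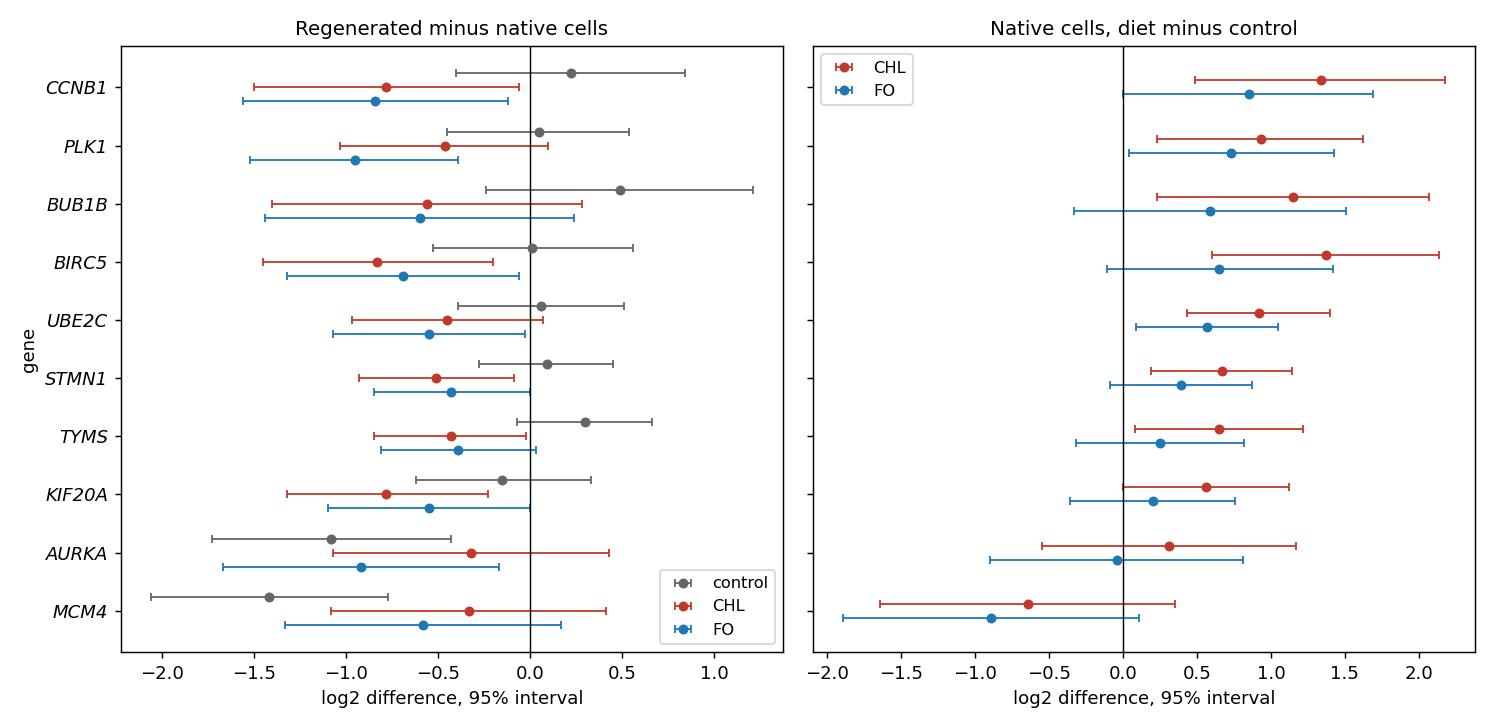
Fitted log2 differences of the 10 genes with 95% intervals: regenerated minus native in control, CHL and FO pairs (left) and CHL or FO minus control in native cells (right). On the left the CHL and FO points lie below 0 for all 10 genes, and the control points of AURKA and MCM4 (-1.08 and -1.42) lie apart from the control points of the other 8 genes, which range from -0.15 to 0.49.

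AURKA and MCM4 were the only members called when the 3 diets were averaged with equal weight, where 2.67% of all probe sets were called, 1.19% lower and 1.48% higher. AURKA encodes aurora kinase A, which builds the spindle poles, and MCM4 a subunit of the helicase that opens DNA at replication origins. AURKA fell by 0.77 ± 0.20 (SE), 1.71-fold, with a limma adjusted p of 0.0426, and was lower in 15 of 20 pairs. MCM4 fell by 0.78 ± 0.20, also 1.71-fold, with an adjusted p of 0.0423, and was lower in 16 of 20 pairs. At an unadjusted p under 0.05, 8 members were lower, against 11.9% of all probe sets, with KIF20A at -0.49 (adjusted p = 0.0668), PLK1 at -0.46 (0.0904) and BIRC5 at -0.50 (0.0924) next in order. BUB1B at -0.22 and TYMS at -0.18 had the largest unadjusted limma p (0.326 and 0.127). The other probe sets of TYMS were further below 0, at -0.86 and -0.38, with limma adjusted p of 0.0987 and 0.0883. The 2 calls were near the threshold: with 1 animal left out, AURKA was no longer called in 13 of 20 cases and MCM4 in 11 of 20, at differences from -0.84 to -0.67 and from -0.84 to -0.68.

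AURKA was at -2.82, -1.94 and -1.47 in control animals 6, 5 and 4, at -1.70 and -1.17 in controls 3 and 2, and between -0.22 and 0.36 in the remaining 3 controls. MCM4 was below 0 in all 8 control pairs, at -2.78 in animal 5, -2.71 in animal 4 and -2.28 in animal 6, and from -1.36 to -0.09 in the others. In CHL pairs AURKA ranged from -1.16 to 0.23 and MCM4 from -1.64 to 0.48, and in FO pairs AURKA from -2.40 in animal 1 to 0.10 and MCM4 from -2.02 in animal 3 to 0.38. In controls 4, 5 and 6 these 2 genes were thus far below 0 while CCNB1, at 0.73, 1.07 and 1.0, was above it. The MCM4 signal on control regenerated arrays was low, with a median of 35.5. In control 6 it was 2.34, and that of AURKA 2.35. The size of the falls changed with the number added to the signal. With 1 added, the mean of the 3 diets was -1.13 for MCM4 and -0.96 for AURKA. With 64 added, the control difference of MCM4 was -0.88. Native levels of both genes also differed by label style: MCM4 was at 7.93 ± 0.60 (SD, n = 5) in control native arrays with MA labels and 5.98 ± 0.45 (n = 3) in those named by artery, and AURKA at 8.21 ± 0.46 and 6.58 ± 0.40.

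The same pairs stood out for RNA integrity. The actin 3'/5' ratio rose from native to regenerated by 174-fold in control animal 6 and 236-fold in FO animal 3, and by 4.82-fold, 3.22-fold and 2.35-fold in controls 5, 4 and 2, while in the other 15 pairs the change lay between 0.681-fold and 1.69-fold. Over the 18 pairs without control 6 and FO 3, which stand apart, the pair difference of MCM4 fell with the log2 change of the ratio (Pearson r = -0.83, permutation p = 7e-05, adjusted over the 10 genes 0.0007; Spearman rho = -0.73, permutation p = 0.00089, adjusted 0.0089). For AURKA r was -0.67 (permutation p = 0.0025, adjusted 0.013) and rho -0.63 (permutation p = 0.0062, adjusted 0.031). Without controls 4 and 5, the 2 pairs farthest out, r was -0.57 for both genes over 16 pairs, and over the 13 artery-named pairs it was -0.55 for MCM4 and -0.66 for AURKA. For the other 8 members r lay between -0.14 and 0.45 over the 18 pairs, with adjusted permutation p from 0.22 to 0.57. Over the 13 artery-named pairs, however, r was below 0 for these 8 members too, from -0.55 for STMN1 to -0.33 for BUB1B.

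**Figure D4:**
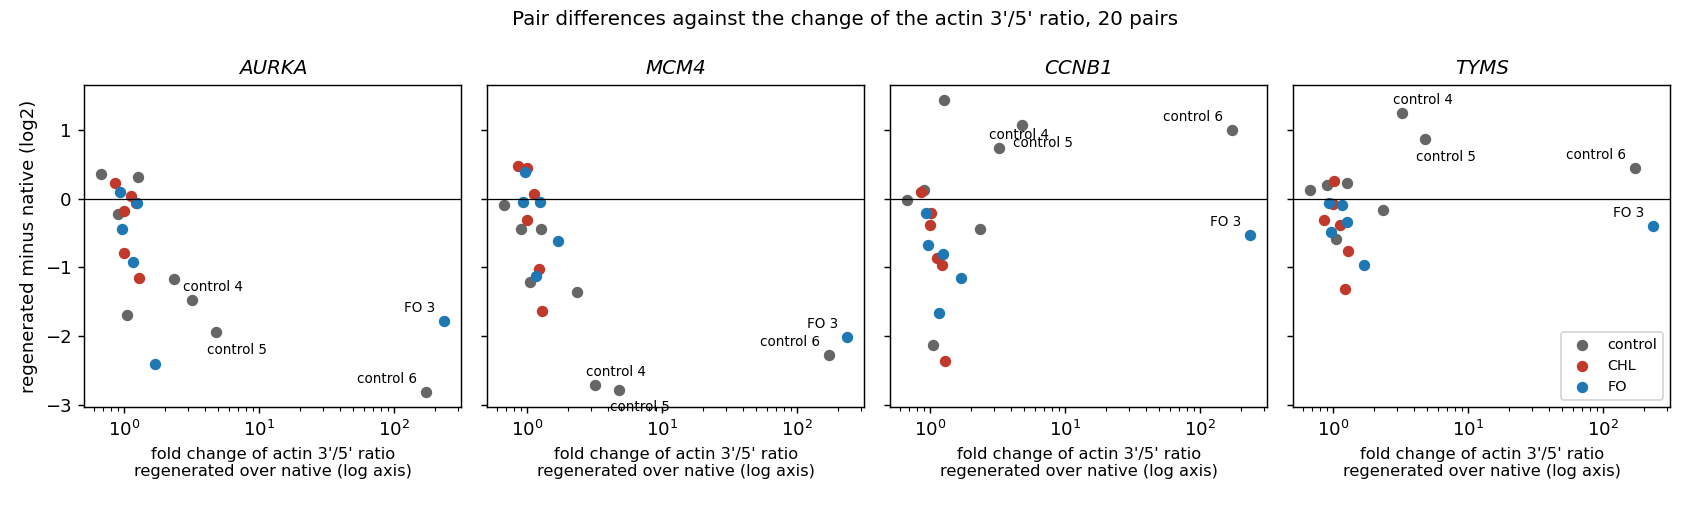
Regenerated minus native difference of AURKA, MCM4, CCNB1 and TYMS (log2, vertical) against the fold change of the actin 3'/5' ratio from native to regenerated (log axis) in 20 pairs, coloured by diet. AURKA lies between -2.82 and -1.47 and MCM4 between -2.78 and -2.02 in controls 4, 5 and 6 and in FO 3, where CCNB1 and TYMS lie between -0.53 and 1.25.

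Results with and without these pairs differ. Without control 6 and FO 3, MCM4 was at -0.64 and AURKA at -0.63 in the mean of the 3 diets, with limma adjusted p of 0.104 and 0.0986. With controls 4 and 5 left out as well, a choice made after seeing the data, they were at -0.45 and -0.52, with adjusted p of 0.226 and 0.234. With the log2 actin ratio as a covariate, also added later, both were at -0.51. The control difference of MCM4 went from -1.42 to -0.71 when controls 4, 5 and 6 and FO 3 were left out, and that of AURKA from -1.08 to -0.48. The control differences of the other 8 members all turned sign without these animals, none of them called: CCNB1 was then at -0.21, BUB1B at -0.24, BIRC5 at -0.22, PLK1 at -0.19, STMN1 at -0.15, UBE2C at -0.13, TYMS at -0.04 and KIF20A at 0.29. The mean log2 difference of the smooth muscle markers was 2.78, 1.82 and 1.10 in controls 5, 4 and 6 and 0.25 in FO 3. It was also high in FO 6 (2.14), FO 1 (1.45), control 1 (1.05) and control 2 (0.94). All 12 were higher in the fitted control difference, and ACTA2, smooth muscle actin, was called at 3.62. Endothelial markers were at -1.07, -0.85 and -0.97 in controls 5, 4 and 6, -0.63 in FO 3 and -0.91 in FO 6. The part of smooth muscle or other cells in the fall of AURKA and MCM4 was not tested.

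TYMS encodes thymidylate synthase, which makes the thymidine nucleotide for DNA synthesis, and its 3 probe sets did not move together. The brightest was lower in all 6 FO pairs, from -0.97 to -0.07, in 5 of 6 CHL pairs, from -1.31 to 0.25, and in 2 of 8 control pairs, with 1.25 in animal 4 and 0.86 in animal 5. The probe set second by level was at -4.76 in control animal 6 and -3.87 in FO animal 3, against -1.53 to 0.60 in the other 7 controls and -2.03 to 0.63 in the other 5 FO pairs. The third was below 0 in all 8 control pairs, from -1.74 in animal 6 to -0.21. The fitted control differences were 0.30 ± 0.17 (SE), -1.15 ± 0.46 and -0.66 ± 0.19, so the direction for TYMS in control pairs depends on the probe set. In FO pairs all 3 were below 0, at -0.39, -1.04 and -0.37, and none was called.

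The authors' deposited tables give their own folds for some of these probe sets. In one of the authors' deposited tables of MAS5 values AURKA was 2.86-fold lower in control regenerated cells, and in another of the authors' deposited tables of that kind MCM4 was 4.7-fold lower. In another of the authors' deposited tables, from a guided workflow whose method is not given in the sources used here, the same folds were 1.69 and 1.82. Both differences thus had the same direction and unlike sizes in these tables.

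How the genes moved together was described by correlation of the pair differences after removal of the diet means, over 20 pairs on shared arrays, with no test. CCNB1, BIRC5, UBE2C, PLK1, BUB1B, TYMS and STMN1 varied together, with r between 0.51 and 0.94 and a median of 0.78 over 21 gene pairs, the highest for BIRC5 with UBE2C. AURKA and MCM4 correlated with each other (r = 0.75) but weakly with those 7, with r from -0.16 to 0.51. KIF20A had r from -0.32 to 0.07 with the 7 and 0.49 and 0.56 with AURKA and MCM4. Over the 40 arrays with group means removed, the 7 had r from 0.55 to 0.89, and AURKA and MCM4 correlated at 0.80. There the separation was less clear: with the 7, AURKA and MCM4 had r from 0.13 to 0.54 and KIF20A from 0.05 to 0.44. The 7 were set apart after these values were seen. In the 7 genes the mean control pair difference was 0.17 ± 0.75 (SD, n = 8), with controls 4 to 7 between 0.69 and 0.77 and control 3 at -1.38.

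**Figure D5:**
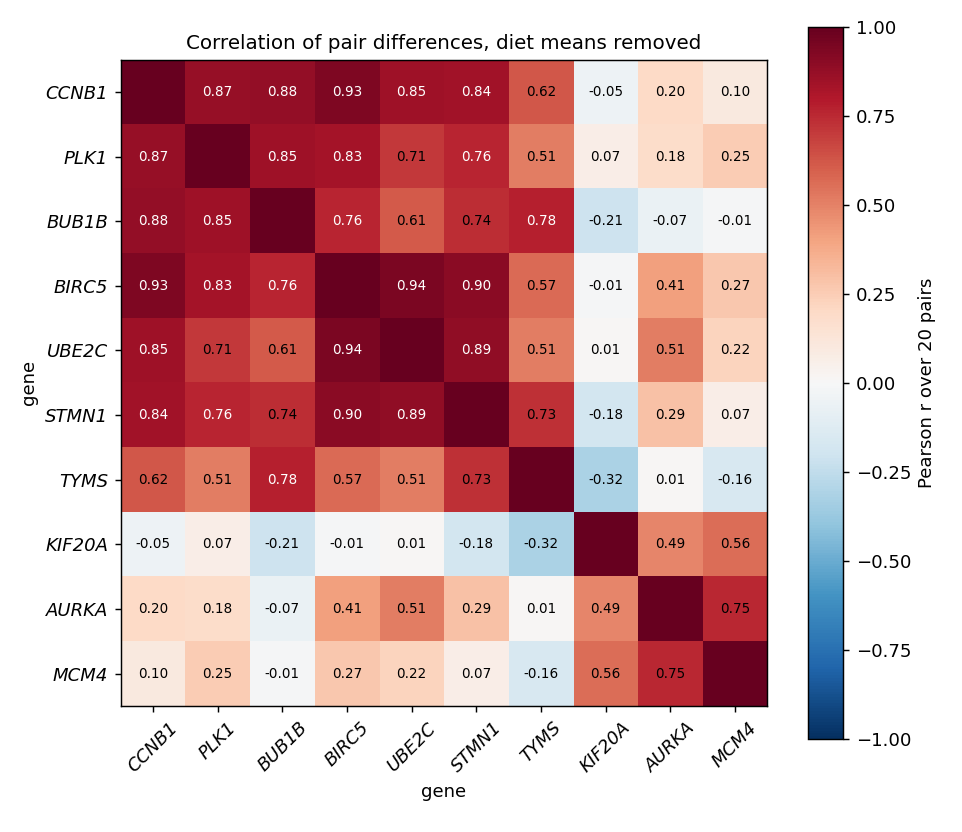
Pearson correlation between the 10 genes of their regenerated minus native differences over 20 pairs, with the mean of each diet removed. The upper left block of 7 genes is red throughout (0.51 to 0.94), and KIF20A, AURKA and MCM4 form a smaller block of 0.49 to 0.75.

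Among 1929 other named genes, those whose pair differences over the 20 pairs were most like the mean of the 10 were CDK1, the partner kinase of cyclin B1 (r = 0.94), MAD2L1, a spindle checkpoint protein (0.92), NDC80 (0.88) and NUF2 (0.87), subunits of the outer kinetochore, and CCNB2 (0.85). DLGAP5 (0.85), the kinase CDK2, HELLS, HMGB2 and TOP2A (0.84 each) followed. The median r over all these genes was -0.03, and 9 of the 10 stood on the cell cycle lists used here. The share of all 1929 genes on those lists is not given, and the lists were written with earlier results known. Diet means were not removed, so the lower CHL and FO values behind the choice of the members enter these r. CDK1 differed on average by -0.04 in control, -0.59 in CHL and -0.72 in FO pairs and was lower in 3 of 8, 5 of 6 and 5 of 6 pairs. TOP2A, which untangles DNA, differed by 0.21, -0.75 and -0.72.

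Other listed cell cycle genes were counted in the same comparisons, of which CHL and FO pairs are those behind the choice of the members. Of 17 further mitosis genes, 17 were lower in CHL pairs (median -0.45), 17 in FO pairs (median -0.48) and 6 in control pairs (median 0.08), and limma called none. Of 16 further DNA replication genes, 13 were lower in CHL, 15 in FO and 12 in control pairs, with medians of -0.22, -0.34 and -0.14 and none called. In the mean of the 3 diets 17 of the 17 mitosis genes and 15 of the 16 replication genes were lower, with 9 and 10 at an unadjusted p under 0.05, against 11.9% of all probe sets, in an average that includes the CHL and FO pairs. The smallest p belonged to RFC2, a subunit of the clamp loader, at -0.46 ± 0.13 (SE, limma adjusted p = 0.054, lower in 17 of 20 pairs), and MAD2L1, at -0.29 ± 0.08 (0.0576, lower in 14). RFC3 was at -0.34, PCNA, the sliding clamp, at -0.34, RPA3 at -0.29, CDK1 at -0.45, NUF2 at -0.43 and PBK at -0.39, with adjusted p from 0.0692 to 0.14.

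Of 7 genes that act around G1, 4 were below 0 and 3 above. CCND1, which encodes the G1 cyclin D1, rose by 0.44 ± 0.11 (SE) in the mean of the 3 diets (limma adjusted p = 0.032), being higher in 15 of 20 pairs, and CCND2 was at 0.34 ± 0.10 (0.0583), also higher in 15. CCND1 was the only 1 of these 7 that was called. Without control 6 and FO 3 it was at 0.39 (adjusted p = 0.0868). Of 11 inhibitors and p53 targets 6 were below 0, none was called, and CDKN1A, the inhibitor p21, was at 0.24 ± 0.08 (0.0955) and GADD45B at 0.59 ± 0.25 (0.159), while BAX was at -0.60 ± 0.22 (0.123). Of 6 measured histone and chromatin genes 5 were below 0, with H2AFZ at -0.27 ± 0.08 (0.0809), HMGB2 at -0.36, ASF1B at -0.32 and HMGB1 at -0.15.

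Native cells were compared between diets on the 20 native arrays, 1 per animal. These arrays also enter the pair differences, so the values are not independent of them. The genes were chosen as lower in regenerated than in native CHL and FO cells, which favours high native values there. The native values and counts are thus a description, and nothing is read from the counts. CHL native cells had higher levels than control native cells for 9 of 10 members, by 1.37 ± 0.37 (SE) for BIRC5, 1.34 ± 0.41 for CCNB1, 1.15 ± 0.44 for BUB1B, 0.93 ± 0.33 for PLK1 and 0.92 ± 0.23 for UBE2C. STMN1 was at 0.67 ± 0.23, TYMS at 0.65 ± 0.27, KIF20A at 0.56 ± 0.27, AURKA at 0.31 ± 0.41 and MCM4 at -0.64 ± 0.48. No member passed the threshold, where 0.0111% of probe sets were called, and the smallest limma adjusted p were 0.11 for UBE2C and 0.121 for BIRC5. At an unadjusted p under 0.05, 8 members were higher, against 5.77% of all probe sets. The second UBE2C probe set was at 0.61 (limma adjusted p = 0.352), and the other TYMS probe sets were at -0.17 and 0.53. The median over the members was 0.79 and over all probe sets -0.03.

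For each member the SD was larger in control than in CHL native cells. In FO native cells it was larger than in control for UBE2C (0.57 against 0.43) and BIRC5 (0.86 against 0.83). TYMS ranged from 10.40 to 12.42 in the 8 control native arrays and from 11.63 to 11.96 in the 6 CHL native arrays, so the CHL values lay inside the control range. UBE2C ranged from 9.97 to 11.39 in control and from 11.23 to 11.98 in CHL native cells, with 5 of 6 CHL arrays above the highest control. Control animal 2 had the highest native level of 9 members, among them CCNB1 and PLK1, and control animal 7 the lowest of 8. Averaged over the 10 genes, control native arrays with MA labels were at 9.31 ± 0.63 (SD, n = 5) and those named by artery at 8.42 ± 0.51 (n = 3), while CHL native arrays, all named by artery, were at 9.70 ± 0.32 (n = 6). With artery-named animals alone the CHL minus control difference was larger for CCNB1 (2.05 ± 0.39) and BIRC5 (1.85 ± 0.44) and changed sign for MCM4 (0.57 ± 0.50), with limma adjusted p of 0.252, 0.252 and 0.827. MA labels are found in control animals alone, so the label styles were compared within them and not within CHL or FO.

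FO native cells had higher levels than control native cells for 8 members, from 0.20 for KIF20A to 0.85 ± 0.41 (SE) for CCNB1, with AURKA at -0.04 and MCM4 at -0.89 ± 0.48. Limma called no probe set, and 9.09% had an unadjusted p under 0.05. At that p 3 members, CCNB1, PLK1 and UBE2C, were higher, against 2.74% of all probe sets. The second UBE2C probe set was at 0.08, against 0.57 for the one counted. Both comparisons share the control native arrays. CHL minus FO native values ranged from 0.19 to 0.72 over the 10 members, none of them called, with a median of 0.36.

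The other mitosis genes were also compared in native cells. All 17 were higher in CHL than in control cells, with a median of 0.89, and all 17 in FO, with a median of 0.44. Of the 16 other replication genes 13 and 12 were higher, with medians of 0.37 and 0.27. None of these genes was called. At an unadjusted p under 0.05, 12 mitosis and 7 replication genes were higher in CHL, against 5.77% of all probe sets, and 3 and 2 in FO, against 2.74%. The lists were written with earlier results known, and nothing is read from these counts either. The 12 smooth muscle markers were also all higher in CHL than in control native cells, with a median of 0.82 and none called, and of 14 endothelial markers 10 were lower, with a median of -0.13. Of 8 fibroblast markers 5 were higher in CHL and 4 in FO than in control native cells, with medians of 0.04 and 0.03 and none called. The part of the cell mixture in the members' native levels was not tested.

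Regenerated cells were compared between diets on the 20 regenerated arrays. CHL minus control values ranged from -0.08 for TYMS to 1.07 ± 0.51 (SE) for AURKA, with a median of 0.37. FO minus control values ranged from -0.49 for BUB1B to 0.12 for AURKA, with a median of -0.16. CHL minus FO values were above 0 for all 10 members, from 0.13 to 0.95. Limma called no probe set in any of the 3 comparisons, and 9.16%, 4.51% and 2.23% of probe sets had an unadjusted p under 0.05. The interval of CCNB1 was -0.40 to 1.07 in CHL and -0.95 to 0.52 in FO against control regenerated cells.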

How the data were processed

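Affymetrix porcine arrays measured RNA in 40 cultures. The authors deposited MAS5 signal intensity, per the submitters' processing notes and the labels, scaled to 1 trimmed mean on every array. Per the file headers, the authors also deposited their own comparisons, as linear fold ratios, as a signed fold score and as log2 fold changes, and the linear folds were copied where cited. In 1 deposited table the gene titles stood a row away from their probe sets, and they were not used. Members were matched by symbol, gene title and, for KIF20A, BUB1B and TYMS, the UniGene title in the target description. Members and gene lists were chosen with earlier results of these data known. From those signals, log2(signal + 16) was computed, 17999 of 23999 gene probe sets above the 25th percentile of mean level were kept, and limma 3.58.1 in R 4.3.3 was fitted over all of them, with Benjamini-Hochberg adjustment in each comparison and a threshold of 0.05. Pair differences used all 40 arrays with the replicate number as a block, and native or regenerated cells were compared on 20 arrays each. The artery-named labels give the native and regenerated cultures of a pair the same animal number, except in FO pair 6. Labels with MA numbers name no animal, so those 5 control pairs, controls 4 and 5 among them, were matched by replicate number. As a check of the pairing, the deviations of both arrays of a pair from their group means were correlated: r was over 0.1 for 17 of the 20 pairs (median 0.47) and stood at -0.20 in FO pair 6, -0.10 in control 4 and -0.03 in control 5. There were 0 identical columns, and any 2 arrays correlated at 0.882 to 0.987. P-values measure the spread between these animals' cultures. The fits were tested on simulated data. Named list genes were the up to 4 of each list with the smallest p in the mean of the 3 diets, and some were left out of the text. Sequences were not used here.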

Additional observations from a re-analysis of the deposited data

Results flagged for a closer look

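Of 90 groups of values tested for a sample far from the others by Dixon's criterion, 3 passed it (3.33%), where chance gives about 1 in 20. The UBE2C level of the regenerated culture of control animal 3 was 9.29, while the other 7 lay between 10.76 and 11.17. The PLK1 pair difference of the same animal was -1.33, against -0.05 to 0.81 in the other 7 control pairs. The AURKA level of the native culture of FO animal 1 was 9.12, against 6.84 to 7.69 in the other 5.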

How the results depend on the processing

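Of 696 member values under alternatives other than leaving out 1 animal, 643 kept direction and side of the threshold, 17 were no longer called, 5 were newly called and 31 had the other sign, none of those called; the cause of these changes was not tested. Leaving out control 4, 5 and 6 and FO 3, chosen after seeing the data, turned the control pair difference of CCNB1 to -0.21, BIRC5 to -0.22, UBE2C to -0.13, PLK1 to -0.19, KIF20A to 0.29, BUB1B to -0.24, TYMS to -0.04 and STMN1 to -0.15, and in native FO minus control TYMS to -0.07 and AURKA to 0.07. Without control 6 and FO 3 the control values of BIRC5, PLK1 and KIF20A were -0.03, -0.06 and 0.00, and native FO AURKA 0.01. Array weights gave -0.02 for BIRC5, -0.03 for PLK1, 0.07 for KIF20A and 0.00 for STMN1 in control pairs and -0.01 for KIF20A in native FO. The actin covariate, also added later, gave -0.01 for BIRC5 and -0.10 for PLK1. Artery-named animals alone gave 0.04 for KIF20A in control pairs, 0.97 for AURKA and 0.33 for MCM4 in native FO and 0.57 for MCM4 in native CHL minus control. Quantile normalization gave 0.05 for AURKA in native FO. Other probe sets gave -0.05 for UBE2C and -0.66 and -1.15 for TYMS in control pairs, and -0.17 and -0.46 for TYMS in native CHL and FO.

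Probe sets called in control pairs, 52 as reported, numbered 20 with pseudocount 1, 156 with pseudocount 64, 22 with the stricter filter, 25 with array weights, 8 with no replicate block, 1066 with a random replicate block, 16 without control 6 and FO 3, 0 in artery-named animals (803 at unadjusted p), 0 by the methods' t-test after Benjamini-Hochberg (3320 at unadjusted p), 12 with the covariate and 5 without the 4 animals. In CHL pairs they were 12 with array weights, 7 with the random block and 0 by the methods' t-test (1221 unadjusted), and in FO pairs 3 with pseudocount 1 or the stricter filter, 23 with weights, 2 with no block, 13 with the random block, 0 by the methods' t-test (902 unadjusted) and 2 in each of the 3 reduced sets of animals. In the mean of the diets they were 58 with no replicate block, 244 without control 6 and FO 3, 24 in artery-named animals, 145 with the covariate and 96 without the 4 animals. The random block gave 1 for CHL minus control pairs. In native CHL minus control they were 1 with pseudocount 64 or the stricter filter, 4 with quantile normalization, 566 with weights, 6 without control 6 and FO 3 and 0 in artery-named animals or without the 4 animals, in native FO minus control 84, 15 and 2 with weights and those reduced sets, and 1 in regenerated CHL minus control with weights.

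In control pairs 1 member, MCM4, was called with pseudocount 64, quantile normalization or the random replicate block. In the mean of the diets 0 members were called with pseudocount 1, no filter, array weights, no replicate block, without control 6 and FO 3, in artery-named animals, with the covariate or without the 4 animals, and 1 with the stricter filter or the random block. Array weights called 2, BIRC5 and UBE2C, in native CHL minus control. With 1 animal left out, members called ranged from 0 to 2 in control pairs and 0 to 3 in the mean, and probe sets called from 9 to 2398 in control pairs, 1 to 4 in CHL, 2 to 8 in FO, 205 to 1118 in the mean, 0 to 232 and 0 to 16 in native CHL and FO minus control and 0 to 1 in regenerated CHL minus control. The extremes came without control 5 and control 8 in control pairs, and without FO 1 and control 8 in the mean. Control pair values then spanned -0.13 to 0.25 for BIRC5, -0.06 to 0.27 for UBE2C, -0.06 to 0.24 for PLK1, -0.33 to 0.00 for KIF20A and 0.00 to 0.22 for STMN1, and AURKA in native FO -0.36 to 0.12. No value was computed without members under the filter, since all 10 passed it.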
